A study of Mus musculus with 9 samples.

Results

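The clustered histone genes are the families of near-identical genes, grouped at a few places in the genome, that code for the core histones H2A, H2B, H3 and H4 and the linker histone H1. They were taken as every gene whose symbol begins with Hist1h, Hist2h, Hist3h or Hist4h, which gave 57 of the 21210 genes measured. There were 5 H1, 14 H2A, 16 H2B, 12 H3 and 10 H4 genes, of which 45 carried Hist1, 8 Hist2, 3 Hist3 and 1 Hist4 symbols. Expression was measured by RNA sequencing in 9 libraries of sorted cells. They came from embryonic day 14.5 mice of strain C57BL/6, genotype Btg2GFP/Tubb3GFP, and the tissue was lateral cortex. After removal of the meninges and ganglionic eminences, cells were dissociated with papain and sorted by fluorescence into 3 groups with 3 libraries each. Proliferating progenitors were the Btg2 negative, RFP minus cells. Differentiating progenitors were the Btg2 positive, RFP plus cells. Neurons were the Tubb3 positive, GFP plus cells. The titles thus name a red reporter for Btg2, an antiproliferative gene of neurogenic progenitors, where the genotype label names a green one. Each library pooled cells of several embryos from different litters, so the spread between libraries is that between pools.

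Most clustered histone genes are replication-dependent: a cell makes their mRNA in S phase, when new DNA has to be wrapped into nucleosomes, and destroys it when replication ends. Their mRNAs are unusual in ending at a short stem-loop, bound by the stem-loop binding protein, in place of a poly-A tail. Some of these genes can also give a longer, polyadenylated mRNA by using a poly-A signal beyond the stem-loop, and such forms are known from cells that have left the cell cycle. The libraries here were prepared from poly-A RNA with oligo(dT) beads, so the values below are those of the histone RNA that this selection retained, not of all histone mRNA.

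The stem-loop was looked for after the coding end in GENCODE M21 transcripts (build GRCm38), as 16 bases that begin with GG, hold T at positions 6 and 8 and A at position 11, end with CC, and pair their first 6 bases with their last 6. A transcript without an annotated coding end was searched over its whole length. Of the 57 genes, 47 had a transcript under the same identifier, and 31 of these held the stem-loop. Hist2h3c1 is among the 31, but its transcript has no annotated coding end and belongs to a gene model named Gm20634. The pattern was in 0.204% of all 141767 transcripts, a share counted per transcript and over whole transcripts, so not on the same basis as the count of genes. Several of the 16 genes without it have a model that stops at or just after the coding end, so the search could not find one there. The Hist1h2af transcript is 399 bases long with its coding end at 395, and that of Hist1h1b 743 with its coding end at 740. Its commonest form, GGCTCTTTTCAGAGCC, was found in 19 genes. The strings below show it in the genes described at length, with the stem-loop in capitals and 5 bases on each side.
Hist3h2a: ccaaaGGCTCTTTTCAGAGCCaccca
Hist3h2ba: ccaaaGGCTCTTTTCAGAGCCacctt
Hist1h1c: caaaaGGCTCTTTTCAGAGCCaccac
Hist1h2ag: acaaaGGCTCTTTTCAGAGCCaccta
Hist1h4i: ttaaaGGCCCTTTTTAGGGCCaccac
Hist1h4b: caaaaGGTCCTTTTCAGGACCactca
The most abundant genes in neurons, Hist3h2a and Hist3h2ba, thus carry the same 16 bases as Hist1h2ag, whose level was lower in neurons than in either progenitor group. The annotated Hist3h2a transcript runs on for 1643 bases after the stem-loop and that of Hist3h2ba for 169, whereas that of Hist1h2ag stops after 23. A long stretch is not particular to them: it is 330 bases in Hist1h4i, which fell to neurons, and 2010 in Hist1h2ac, which passed no comparison in the fit of all 9 libraries.

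The values are the authors' normalised read counts, rounded to whole numbers. Per-library totals were 17531558 to 22076409, and 1 read was worth an estimated 0.8 to 1.385 of a normalised count, so a value of 1 stands for about 1 read. Btg2 was 7032 to 9336 in proliferating and 14022 to 19983 in differentiating progenitors, against 2645 to 3390 in neurons. Tubb3, a neuronal tubulin, was 1158 to 2511, 9711 to 13097 and 39932 to 50230 in the same order. Markers of red blood cells summed to 102508 to 255488 in proliferating progenitors, 210 to 2020 in differentiating progenitors and 190 to 268 in neurons. Markers of endothelial and mural cells summed to 559 to 1166 in proliferating progenitors and to 63 to 97 in neurons (6 of 6 lower), and all 3 tested markers of microglia were lower in neurons too. Markers of interneurons summed to 68 to 936 in proliferating progenitors, 420 to 2775 in differentiating progenitors and 6531 to 7383 in neurons. The part of such cells in the histone differences was not tested. In pooled cells, fewer cells of a type and less RNA per cell cannot be told apart. The tests are limma contrasts of the 3 group means over all 9 libraries on log2(value + 1), so the 3 comparisons share groups; changes are given on that scale ± their standard error, with p-values adjusted by Benjamini-Hochberg over the 15828 genes that had a value of at least 10 in 3 libraries or more.

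Few clustered histone genes carried most of the signal. The mean over the 9 libraries was at least 100 in 4 genes, 10 to 100 in 6, 1 to 10 in 39 and under 1 in 8. Hist3h2a and Hist3h2ba together made up 37.1% of the summed histone level in proliferating progenitors, 59.8% in differentiating progenitors and 87.1% in neurons. The summed level of all 57 genes was 2041 ± 299 (SD, n = 3) in proliferating progenitors, 2387 ± 313 in differentiating progenitors and 4384 ± 565 in neurons. Yet 51 of the 57 had a lower mean in neurons than in proliferating progenitors, and 16 were listed at 0 in all 3 neuron libraries. The sum therefore followed a few genes and not the majority.

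**Figure D1:**
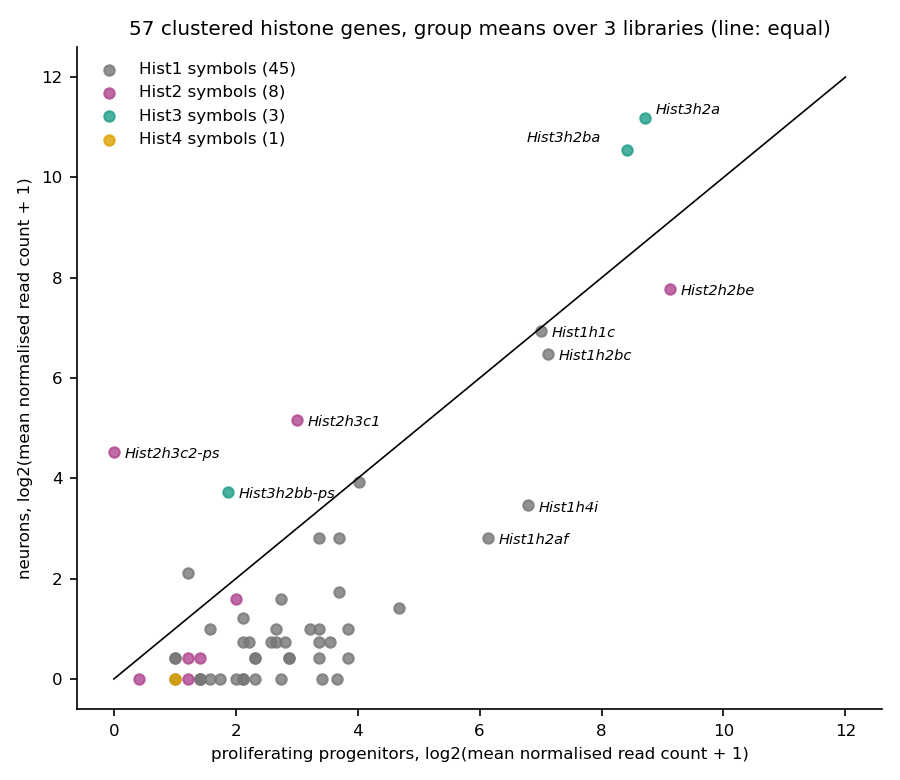
Mean normalised read count of each of the 57 clustered histone genes in proliferating progenitors (x axis) and neurons (y axis), both as log2(mean + 1) over 3 libraries, coloured by symbol group; the line marks equal levels. Hist3h2a and Hist3h2ba stand far above the line and above most other genes, 51 genes lie below it, and many lie on the floor of the y axis.

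Counted without any filter, 36 of the 57 genes, or 63.2%, had all 3 neuron libraries below all 3 proliferating progenitor libraries, against 28.6% of all genes in the table. Another 5, or 8.77%, had all neuron libraries above, against 27.5% of all genes. For neurons against differentiating progenitors, 26 genes (45.6%) lay wholly below and 6 (10.5%) wholly above, against 24.0% and 25.1% of all genes. For differentiating against proliferating progenitors, 9 (15.8%) lay wholly below and 4 (7.02%) wholly above, against 15.8% and 14.8%. The share lying lower was thus above that of all genes in both comparisons with neurons and equal to it between the progenitor groups. That last count was 15 (26.3%) without differentiating progenitor replicate 1, where 22.8% of all genes lay wholly below. It was 16 (28.1%) without proliferating progenitor replicate 3, against 19.1%, and 10 (17.5%) without its replicate 1, against 22.1%. Without proliferating progenitor replicate 2 the share was 21.1%, against 19.5% of all genes. Without differentiating progenitor replicate 2 or 3 it was 19.3% and 21.1%, against 18.1% and 18.7%. Leaving out a library cannot lower such a count.

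Of the 57 genes, 18 reached the level needed for the limma test. A gene could reach it through the group in which it was high, so the counts called among these are given for completeness. Hist2h3c2-ps reached it only through neurons, Hist1h4b only through proliferating progenitors, and Hist1h1e, Hist1h3i and Hist1h4d through exactly 3 progenitor libraries. Hist1h2ai, which passed no comparison in the fit of all 9 libraries, also reached it through exactly 3 progenitor libraries. All of these genes are no longer tested when any 1 of the libraries that carried them is left out. The libraries of the called ones are therefore given below without a p-value, as are those of Hist1h3d, which reached the level in 4 progenitor libraries. Hist1h2ag reached it only through progenitor libraries, and its falls to neurons are given without a p-value too. Between the progenitor groups, 3 rose and 1 fell, where 13.8% and 11.1% of all genes tested were called. From differentiating progenitors to neurons, 5 rose and 9 fell, where 27.6% and 26.4% of all genes were called. From proliferating progenitors to neurons, 4 rose and 10 fell, with 32.2% and 31.1% called over all genes. The median change of all genes tested was -0.02, -0.01 and -0.02 in the same order.

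The 3 genes of the Hist3 locus all had their highest means in neurons. Hist3h2a, which codes for a core histone H2A, lies at chr11:58954685-58956830 on the plus strand (GRCm38). It was 449, 409 and 395 in the 3 proliferating progenitor libraries, 808, 797 and 748 in differentiating progenitors, with 2496, 2298 and 2172 in neurons. The groups stood apart at both steps, and the libraries within each were close to one another. Hist3h2a rose by 0.91 ± 0.09 between the progenitor groups (adjusted p = 0.000157), and by a further 1.56 ± 0.09 from differentiating progenitors to neurons (adjusted p = 8.33e-07). From proliferating progenitors to neurons the rise was 2.47 ± 0.09 (adjusted p = 4.02e-08). All 3 calls of Hist3h2a held under every alternative setting and without any 1 library. Interneuron markers rose as well, with 5 of 5 called from proliferating progenitors to neurons; their part in the rise was not tested.

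Hist3h2ba, which codes for an H2B, the partner of H2A in the nucleosome, lies at chr11:58948920-58949533 on the same strand. Its levels were 272 to 413 in proliferating progenitors (340 ± 70.6, SD, n = 3), 686, 730 and 510 in differentiating progenitors, with 1944, 1246 and 1295 in neurons. The 3 groups did not overlap, but neuron replicate 1 stood well above the other two. It rose by 0.92 ± 0.22 between the progenitor groups (adjusted p = 0.0158), by 1.20 ± 0.22 from there to neurons (adjusted p = 0.00138) and by 2.12 ± 0.22 over both steps (adjusted p = 2.54e-05). The first of these rises lost its call without proliferating progenitor replicate 2 (adjusted p = 0.0502), without proliferating progenitor replicate 3 (0.0596) and without differentiating progenitor replicate 2 (0.0658). Per kilobase of the deposited gene length, Hist3h2ba was the most abundant clustered histone gene in each group, with mean levels of 548, 1035 and 2411 per kilobase, and Hist3h2a had 210, 394 and 1167.

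The third gene of the locus, Hist3h2bb-ps, is named as a pseudogene of H2B. It lies on the opposite strand at chr11:58954048-58954512, and its start is 172 bases from that of Hist3h2a. Its values were low, at 1, 3 and 4 in proliferating progenitors, 5, 4 and 9 in differentiating progenitors, with 18, 6 and 13 in neurons. Neurons lay above proliferating progenitors in all libraries but overlapped with differentiating progenitors, and the gene was too low to be tested. The end of Hist3h2ba is 5151 bases from the start of Hist3h2a.

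**Figure D2:**
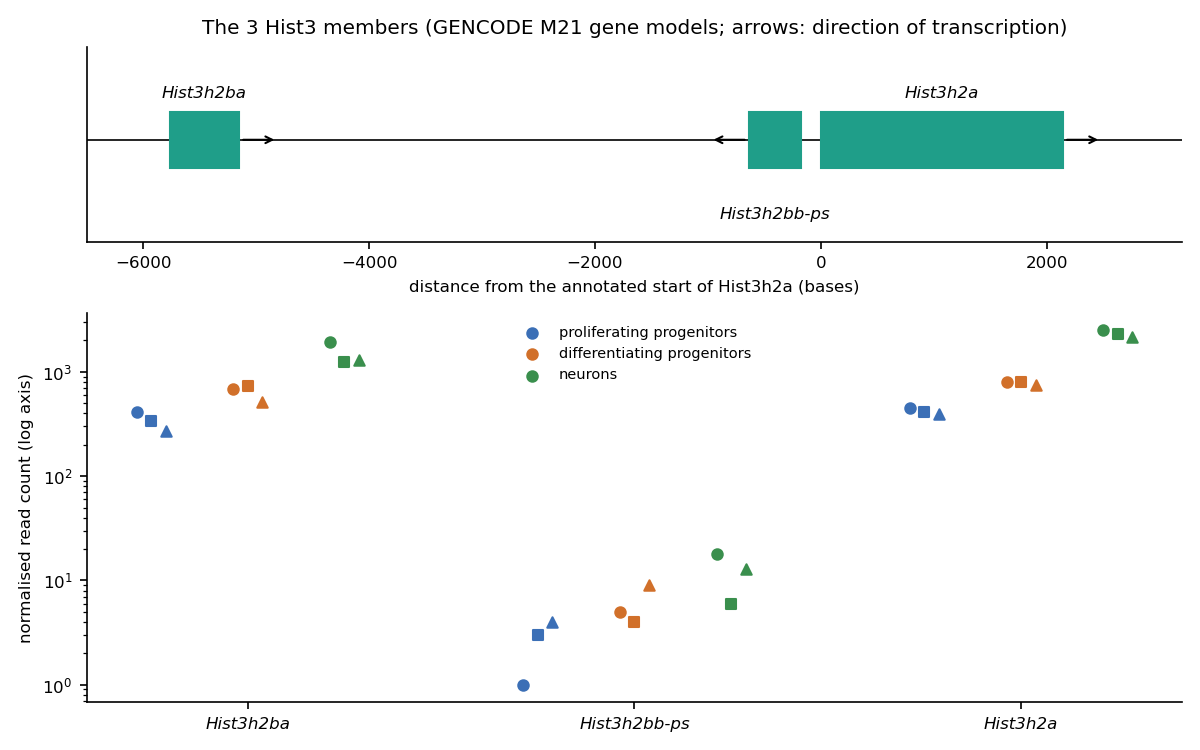
Top, gene models of the 3 Hist3 genes by distance in bases from the annotated start of Hist3h2a, with arrows for the direction of transcription. Bottom, normalised read count of each library on a log axis (circle, square and triangle are replicates 1, 2 and 3); for Hist3h2a and Hist3h2ba the 3 groups do not overlap, with neurons at 2172 to 2496 and 1246 to 1944.

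Trim17, which codes for a tripartite-motif protein of the ubiquitin ligase family, overlaps Hist3h2a on the same strand, and the models share 708 exonic bases of the 2146 of Hist3h2a. Trim17 was 287, 278 and 247 in proliferating progenitors, 559, 542 and 440 in differentiating progenitors, with 1575, 1435 and 1285 in neurons. It rose by 0.92 ± 0.13 and 1.48 ± 0.13 at the 2 steps (adjusted p = 0.000928 and 1.02e-05), and its ratio to Hist3h2a was 0.59 to 0.69 in all 9 libraries. The reads of the shared bases cannot be assigned to one of the genes from the deposited values, and how much of the Hist3h2a rise they carry was not tested. Hist3h2ba overlaps no other gene in that annotation.

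The promoters of both genes are printed because the genes rose together. They are RefSeq sequences of GRCm38.p6 from 250 bases before to 50 bases after the start, with matches to ATTTGCAT (the octamer bound by POU factors), CCAAT and TATAAA on either strand in capitals. The first lies at chr11:58954435-58954734 and the second at chr11:58948661-58948960, both on the plus strand.
Hist3h2a: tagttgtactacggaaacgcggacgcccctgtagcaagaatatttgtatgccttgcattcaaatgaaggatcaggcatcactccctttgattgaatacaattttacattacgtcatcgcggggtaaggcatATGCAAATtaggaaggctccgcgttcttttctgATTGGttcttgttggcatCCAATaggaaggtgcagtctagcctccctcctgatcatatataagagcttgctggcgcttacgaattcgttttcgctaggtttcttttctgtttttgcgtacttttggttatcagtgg
Hist3h2ba: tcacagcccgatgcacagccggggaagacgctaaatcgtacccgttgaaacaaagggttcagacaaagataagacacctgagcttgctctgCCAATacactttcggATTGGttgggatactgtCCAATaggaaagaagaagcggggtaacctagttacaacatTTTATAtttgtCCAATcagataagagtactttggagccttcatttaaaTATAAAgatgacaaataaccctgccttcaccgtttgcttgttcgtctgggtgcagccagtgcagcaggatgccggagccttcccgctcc
Both hold CCAAT; the octamer was found in the window of Hist3h2a and TATAAA in that of Hist3h2ba. Among the 50 clustered histone genes with a RefSeq promoter, 44 held CCAAT (88.0%, against 37.4% of 32851 promoters), 29 held TATAAA (58.0% against 13.6%) and 12 held the octamer (24.0% against 1.74%). All 12 genes with the octamer were H2A or H2B genes, 6 of each. Some windows overlap on opposite strands, so a shared site counts for both genes. The octamer is shared in this way by Hist1h2ae and Hist1h2bg, and by Hist1h2ah and Hist1h2bk. These matches describe the letters in the windows only.

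The remaining H2A genes did not share the pattern of Hist3h2a. Hist1h2af was the second most abundant H2A gene, at 53, 136 and 20 in proliferating progenitors, 100, 182 and 19 in differentiating progenitors, with 13, 4 and 1 in neurons. Its progenitor libraries varied widely, with replicate 2 highest and replicate 3 lowest in both groups, but every one lay above every neuron library. It fell by 3.79 on the log2 scale from differentiating progenitors to neurons (adjusted p = 0.0106). It fell by 3.37 from proliferating progenitors (adjusted p = 0.0157), a call that was lost without proliferating progenitor replicate 2 (adjusted p = 0.0625) or neuron replicate 3 (adjusted p = 0.0617). The progenitor groups differed by 0.42 ± 1.01 (adjusted p = 0.844).

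Hist1h2ag was 28, 25 and 21 in proliferating progenitors, 18, 11 and 13 in differentiating progenitors, with 4, 1 and 0 in neurons. The 3 groups did not overlap. The change of Hist1h2ag on the log2 scale was -2.77 from differentiating progenitors to neurons and -3.57 from proliferating progenitors to neurons. No p-value is given for these falls, because only the progenitor libraries brought the gene into the test. The step between the progenitor groups, -0.79 ± 0.54, did not pass (adjusted p = 0.352). Of the 14 H2A genes, 8 had all neuron libraries below all proliferating progenitor libraries and only Hist3h2a had them above.

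Among the H2B genes, Hist2h2be had the highest level in proliferating progenitors before division by length. It was 654, 549 and 470 there, 555, 340 and 349 in differentiating progenitors, with 244, 199 and 212 in neurons. The neurons lay wholly below both progenitor groups, which overlapped because differentiating progenitor replicate 1 was high. Hist2h2be fell by 0.89 on the log2 scale from differentiating progenitors to neurons (adjusted p = 0.00535) and by 1.34 from proliferating progenitors (adjusted p = 0.000359). The change between the progenitor groups was -0.45 ± 0.21 (adjusted p = 0.156); it passed with replicate number as a block (adjusted p = 0.00832), in replicates 2 and 3 alone (-0.56, adjusted p = 0.0068) and without differentiating progenitor replicate 1 (-0.68, adjusted p = 0.0174).

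Hist1h2bc was lowest in the middle group. Its levels were 165, 136 and 112 in proliferating progenitors, 55, 60 and 48 in differentiating progenitors, with 65, 106 and 95 in neurons, with no overlap between differentiating progenitors and either other group. Of the 18 genes tested it alone was called lower in differentiating progenitors in the fit of all 9 libraries without a block; it fell by 1.31 on the log2 scale (adjusted p = 0.00341). Red blood cell markers were also lower in differentiating progenitors, with 5 of 6 called; their part in this fall was not tested. The rise to neurons was 0.67 (adjusted p = 0.0352), and the difference of neurons from proliferating progenitors was -0.64 (adjusted p = 0.0371).

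Neither of those last calls was stable. The rise from differentiating progenitors to neurons was lost on leaving out differentiating progenitor replicate 1 (adjusted p = 0.0653), 2 (0.0507) or 3 (0.107), proliferating progenitor replicate 2 (0.0529), or neuron replicate 2 (0.127) or 3 (0.104). With every library scaled to the same total it was 0.46 (adjusted p = 0.12). The fall from proliferating progenitors to neurons in Hist1h2bc was lost without proliferating progenitor replicate 1 (adjusted p = 0.119) or 2 (0.0825) and without neuron replicate 1 (0.121) or 3 (0.0559), and was -0.30 (adjusted p = 0.225) in replicates 2 and 3 alone. Of the 16 H2B genes, 12 had all neuron libraries below all proliferating progenitor libraries, and the 2 that had them above were Hist3h2ba and Hist3h2bb-ps.

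**Figure D3:**
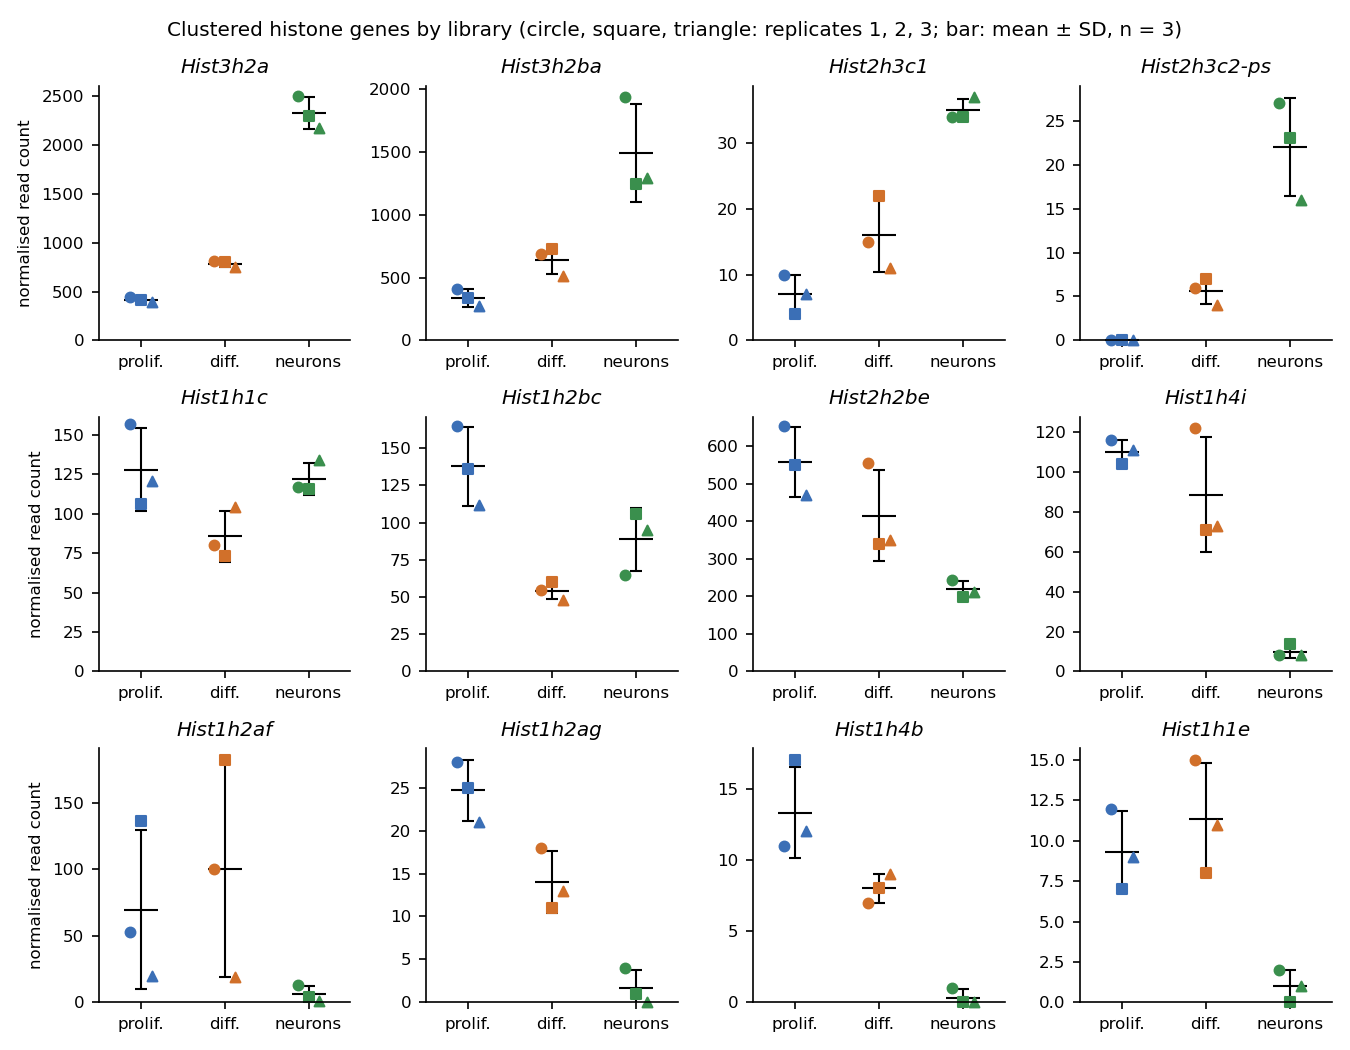
Normalised read count of 12 clustered histone genes in each library (y axis, from 0), by group (x axis: proliferating progenitors, differentiating progenitors, neurons), with symbols for replicates 1 to 3 and bars for the mean ± SD. The top row rises to neurons, Hist1h1c and Hist1h2bc are lowest in differentiating progenitors, and the other 6 are lowest in neurons, with the progenitor libraries of Hist1h2af spread from 19 to 182.

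The H3 genes were low throughout, with the highest mean over all libraries at 19.3. Hist2h3c1 was 10, 4 and 7 in proliferating progenitors, 15, 22 and 11 in differentiating progenitors, with 34, 34 and 37 in neurons, with no overlap between groups. It rose by 2.24 from proliferating progenitors to neurons (adjusted p = 0.000498). The change between the progenitor groups was 1.11 ± 0.36 (adjusted p = 0.0551), which passed with the replicate block (adjusted p = 0.0323) and without proliferating progenitor replicate 1 (1.38, adjusted p = 0.0295). The identifier behind this row is named Gm20634 in GENCODE M21, a processed transcript at chr3:96245554-96248509 that runs over Hist2h2aa1 and Hist2h3c1, so the row need not measure an H3 mRNA alone.

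The further rise of Hist2h3c1 from differentiating progenitors to neurons was 1.13 (adjusted p = 0.0259). That call was lost without differentiating progenitor replicate 1 (adjusted p = 0.0552) or 3 (0.0917) and without neuron replicate 1 (0.0554), 2 (0.0661) or 3 (0.0762). Hist2h3c2-ps, deposited as a pseudogene and named Hist2h3c2 in GENCODE M21, lies at chr3:96238108-96239127 on the minus strand. It was listed at 0 in all 3 proliferating progenitor libraries, at 6, 7 and 4 in differentiating progenitors with 27, 23 and 16 in neurons. The 3 groups did not overlap, but the gene was no longer tested when any 1 neuron library was left out. It was the only clustered histone gene listed at 0 in every proliferating progenitor library.

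Other H3 genes went the opposite way. Hist1h3d was 14, 14 and 12 in proliferating progenitors, 9, 7 and 11 in differentiating progenitors, with 1, 0 and 2 in neurons. Hist1h3i was 15, 12 and 8, then 10, 5 and 5, and was listed at 0 in all neuron libraries; its identifier is named Hist1h3c in GENCODE M21. Neurons thus lay below every progenitor library for both. Of the 12 H3 genes, 5 had all neuron libraries below all proliferating progenitor libraries, and the 2 above were the Hist2 genes just described.

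No H4 gene had all neuron libraries above those of either progenitor group. Hist1h4i, at chr13:22040636-22041362 on the minus strand, made up most of the class. It was 116, 104 and 111 in proliferating progenitors, 122, 71 and 73 in differentiating progenitors, with 8, 14 and 8 in neurons. The progenitor groups overlapped and the neurons lay far below both. Hist1h4i fell by 3.03 on the log2 scale from differentiating progenitors to neurons (adjusted p = 2.03e-05) and by 3.38 from proliferating progenitors (adjusted p = 6.51e-06), while the change between the progenitor groups was -0.36 ± 0.29 (adjusted p = 0.444).

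Hist1h4b was 11, 17 and 12 in proliferating progenitors, 7, 8 and 9 in differentiating progenitors, with 1, 0 and 0 in neurons. Hist1h4d was 8, 16 and 12, then 22, 7 and 8, then 4, 2 and 1. Neurons lay below all progenitor libraries for both genes, and 7 of the 10 H4 genes had all neuron libraries below all proliferating progenitor libraries. Hist4h4, whose identifier GENCODE M21 names Hist1h4j on chromosome 13, was 1, 0 and 2 in proliferating progenitors, 1, 0 and 1 in differentiating progenitors and listed at 0 in neurons. These last levels are at the scale of single reads.

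The linker histone genes, whose products bind the DNA between nucleosomes, split into 1 abundant gene and 4 low ones. Hist1h1c, at chr13:23738808-23740367 on the plus strand, was 157, 106 and 121 in proliferating progenitors, 80, 73 and 104 in differentiating progenitors, with 117, 116 and 134 in neurons. Differentiating progenitors lay below both other groups, which overlapped. Its changes of -0.57 ± 0.20 between the progenitor groups (adjusted p = 0.0713) and 0.52 ± 0.20 from there to neurons (adjusted p = 0.0544) did not pass, but both passed with the replicate block (adjusted p = 0.0186 and 0.0173). The second also passed without proliferating progenitor replicate 1 (adjusted p = 0.0396) or differentiating progenitor replicate 3 (0.67, adjusted p = 0.0311). Over both steps Hist1h1c changed by -0.05 (adjusted p = 0.858).

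Hist1h1e was 12, 7 and 9 in proliferating progenitors, 15, 8 and 11 in differentiating progenitors, with 2, 0 and 1 in neurons. Its model overlaps that of Hist1h2be on the same strand, which leaves the source of shared reads uncertain. Hist1h1b was 6, 10 and 13, then 4, 3 and 4, and was listed at 0 in all 3 neuron libraries, too low to be tested. Both stood lower in neurons than in any progenitor library, unlike Hist1h1c.

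Summed by class, the H4 genes were 152, 156 and 153 in proliferating progenitors, 162, 99 and 95 in differentiating progenitors, with 17, 24 and 16 in neurons. The summed H2A level went the other way, from 569 ± 78.4 (SD, n = 3) through 936 ± 104 to 2355 ± 178. Without Hist3h2a, the other 13 H2A genes summed to 151 ± 65.6, 151 ± 76.6 and 32.7 ± 14.6, so the direction of the class sum turned with 1 gene. The H2B sum turned in the same way, from 1107, 1162 and 1824 with Hist3h2ba to 767, 520 and 329 without it. The H3 sum, 56, 60.3 and 60.3, became 49, 44.3 and 25.3 without Hist2h3c1, and the H1 sum, 156, 110 and 126, became 27.7, 24.3 and 3.33 without Hist1h1c. In all 5 classes the sum without its most abundant gene was lowest in neurons. That gene was chosen by its mean over all 9 libraries, neurons included, so this outcome was partly set by the choice. In proliferating progenitors alone, Hist2h2be (mean 558) stood above Hist3h2ba (340), and Hist1h3d (13.3) above Hist2h3c1 (7). Sums that leave out Hist2h2be or Hist1h3d are not given here. With every library scaled to the same total, the H1 and H3 sums were slightly lower in neurons than in differentiating progenitors (ratios of 0.983 and 0.861, where the deposited scale gave 1.15 and 1), so those 2 small differences depended on the scaling.

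**Figure D4:**
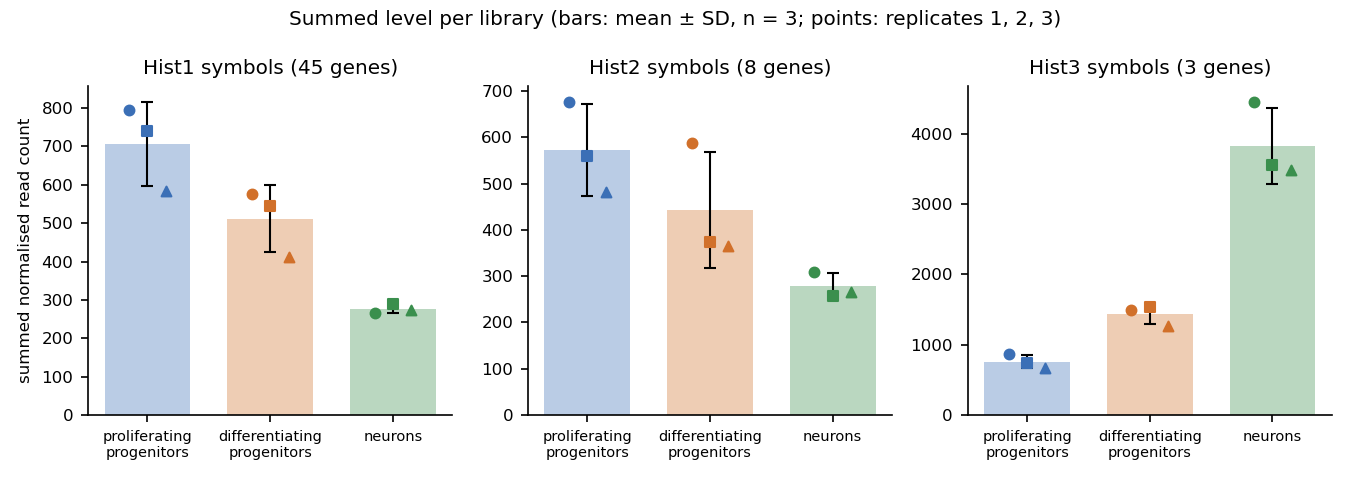
Summed normalised read count of the Hist1, Hist2 and Hist3 genes in each library (points, replicates 1 to 3), with bars for the group mean ± SD over 3 libraries. The Hist1 sum goes from 707 to 512 to 276 and the Hist2 sum from 572 to 442 to 278, while the Hist3 sum goes from 760 to 1432 to 3829.

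The 39 genes that were too low to be tested had means of 0.222 to 7 over the 9 libraries. The share of all equally low genes is not given here, so no excess can be read from the counts that follow. In 37 of the 39 the neuron mean was below that of proliferating progenitors, in 25 with no overlap of libraries, and 15 were listed at 0 in all neuron libraries. The exceptions were Hist3h2bb-ps and Hist1h4h, the latter named after its values were seen, at 0, 2 and 2 in proliferating progenitors, 2, 2 and 0 in differentiating progenitors, with 4, 5 and 1 in neurons. Of the genes tested, Hist1h2ac, Hist1h2ai and Hist1h2be passed no comparison in the fit of all 9 libraries, nor did Hist1h1c; they are named here only to complete the count. Under other settings Hist1h2be was called lower in neurons than in proliferating progenitors (with equal totals, and with no intensity trend), Hist1h2ac was called higher in neurons than in differentiating progenitors without differentiating progenitor replicate 3, and so was Hist1h1c with TMM factors (adjusted p = 0.0449) and with no intensity trend (adjusted p = 0.0433). Near-identical copies of the clustered histone genes make the assignment of a read to one of them uncertain.

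The annotated 3′ ends were compared with the levels, whose ranges overlapped between kinds of end. A poly-A signal, AATAAA or ATTAAA, lay within the last 50 bases of the transcript in 12 of the 47 genes with a transcript. Among these 12 were Hist3h2a, Hist3h2ba, Hist2h2be, Hist1h1c, Hist1h4i and Hist2h3c1, the last with the end of the Gm20634 model. Their mean levels over the 9 libraries ran from 0.556 to 1175 with a median of 14.1. The 10 genes whose transcript ended within 50 bases of the stem-loop, Hist1h2ag and Hist1h4b among them, ran from 0.889 to 13.4 with a median of 3.12. All 10 of the latter had a lower mean in neurons than in proliferating progenitors, as did 8 of the 12 with a signal. The other genes, 11 with sequence past the stem-loop but no signal near the end and 14 in which neither was found, had median levels of 3.89 and 2.95. Several of the 14 have a model that stops at or just after the coding end, so they are not shown to lack a stem-loop. An annotated end is not a measured one, and longer transcripts collect more reads. Per kilobase the medians lay close together, at 6.98 for ends with a signal, 5.96 for ends at the stem-loop, 5.06 for ends past it without a signal and 5.82 for the rest. The ranges per kilobase did not: in the same order they were 1.3 to 1332, 1.55 to 28.5, 0.427 to 22.6 and 1.03 to 147. The part of length in these levels was not tested.

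RNAs that carry no poly-A tail were listed beside the histone genes because the libraries were poly-A selected. Of 99 such genes in the table, nearly all small nucleolar RNAs, 48 were tested. Their summed level was 1111 to 1293 in proliferating progenitors, 962 to 1171 in differentiating progenitors and 897 to 964 in neurons. By limma, 0 of the 48 were called between the progenitor groups (0 higher and 1 lower at an unadjusted p under 0.05), where 13.8% of all genes tested rose and 11.1% fell. From differentiating progenitors to neurons 1 rose and 4 fell, against 27.6% and 26.4% of all genes. From proliferating progenitors to neurons 1 rose and 13 fell, against 32.2% and 31.1%. The medians were -0.15, -0.33 and -0.41. The same shares of all genes apply to the unblocked counts of the lists below. With the replicate block 2 rose and 8 fell from differentiating progenitors to neurons, and 1 rose and 18 fell from proliferating progenitors to neurons. Many of these RNAs lie within introns of other genes, and the part of carry-over in the histone values was not tested.

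The genes that make and process histone mRNA were listed with these data already known. Of 34, 0 rose and 1 fell between the progenitor groups by limma (1 and 4 at an unadjusted p under 0.05), 3 rose and 12 fell from differentiating progenitors to neurons, and 2 rose and 15 fell from proliferating progenitors, with medians of -0.03, -0.27 and -0.25. With the replicate block, 3 rose and 8 fell, 5 rose and 23 fell, and 5 rose and 24 fell. Slbp, the stem-loop binding protein, was 1311, 1726 and 1924 in proliferating progenitors, 1172, 1282 and 1417 in differentiating progenitors, with 270, 383 and 320 in neurons. It fell by 2.00 on the log2 scale at the neuronal step (adjusted p = 9.67e-06), with neurons far below every progenitor library; its change between the progenitor groups was -0.34 (adjusted p = 0.191, or 0.0136 with the replicate block). Npat, the coactivator of histone transcription, had means of 1325, 1330 and 747 and fell by 0.83 on the log2 scale at the neuronal step (adjusted p = 4.32e-05).

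Lsm11, a component of the U7 particle that cleaves histone pre-mRNA, rose to neurons where 12 others of the list fell. It was 561, 540 and 553 in proliferating progenitors, 416, 310 and 313 in differentiating progenitors, with 1438, 1220 and 1164 in neurons. The 3 groups did not overlap, with the middle one lowest. It fell by 0.68 on the log2 scale between the progenitor groups (adjusted p = 0.00599) and rose by 1.88 ± 0.14 to neurons (adjusted p = 3.08e-06). Pou2f1, a POU factor that binds the octamer, fell by 0.97 on the log2 scale at the neuronal step (adjusted p = 8.88e-06), and Cstf1, of the cleavage stimulation complex, by 0.99 (adjusted p = 4.79e-06).

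The S phase and DNA replication genes were listed as a measure of replication in the same libraries. All 36 fell from differentiating progenitors to neurons, with a median of -3.1, and 14 fell and 0 rose between the progenitor groups by limma (16 and 2 at an unadjusted p under 0.05; 20 and 2 with the replicate block), with a median of -0.35. Mcm2, a subunit of the replicative helicase, had means of 8191, 5764 and 575. Histone chaperones and assembly factors went the same way less uniformly, with 16 of 25 falling and 1 rising at the neuronal step (median -0.59; 19 and 4 with the replicate block); Chaf1a, of the complex that places new H3 and H4 behind the fork, fell by 2.61 on the log2 scale (adjusted p = 1.04e-07). Markers of radial glia, the dividing stem cells of the cortex, fell in 8 of 8 cases at that step.

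**Figure D5:**
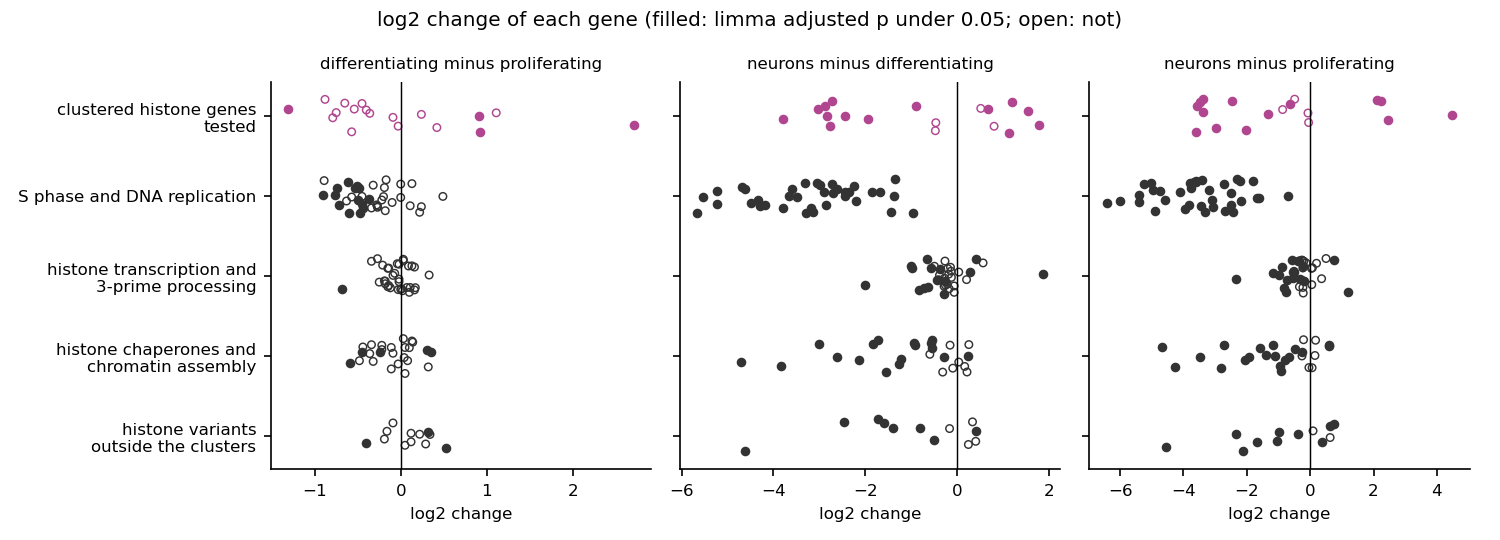
Change of each gene on the log2(value + 1) scale (x axis) in the 3 comparisons, by gene group (rows); filled points passed the limma test at an adjusted p under 0.05 and open points did not. The S phase genes all lie left of 0 in both comparisons with neurons, while the 18 clustered histone genes tested lie on both sides.

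Histone variants coded outside the clusters, whose mRNAs mostly carry poly-A tails, differed among themselves. Of 12 tested, 2 rose and 1 fell between the progenitor groups, and 1 rose and 7 fell from differentiating progenitors to neurons, with medians of 0.12 and -0.65. With the replicate block 5 rose and 1 fell, and 4 rose and 8 fell, H1f0 (adjusted p = 0.0022) and H3f3a (adjusted p = 0.017) being among those that rose between the progenitor groups and H3f3a (adjusted p = 0.00407) among those that rose to neurons. Without the block H3f3a also passed between the progenitor groups when differentiating progenitor replicate 1 was left out (0.48, adjusted p = 0.042). The unblocked calls of H2afy2 (0.32) and H2afz (-0.40) between the progenitor groups were each lost in 6 alternatives, 1 with only the libraries of those groups and most of the others on leaving out a progenitor library, with adjusted p-values of 0.0552 to 0.099 and 0.0595 to 0.104. The replication-independent H3.3 genes kept high levels: H3f3b had means of 6635, 9582 and 8597 and rose by 0.53 between the progenitor groups (adjusted p = 0.0101), and H3f3a had 1705, 2102 and 2626 and rose by 0.63 from proliferating progenitors to neurons (adjusted p = 0.0119). With every library scaled to the same total that rise of H3f3a was 0.34 and did not pass (adjusted p = 0.101). The change of H3f3b at the neuronal step was -0.16 (adjusted p = 0.278, or 0.0176 with the replicate block). Cenpa, the H3 variant of centromeres, fell by 4.61 on the log2 scale at that step (adjusted p = 3.27e-07). H2afz, which codes for H2A.Z, fell by 1.72 on the log2 scale (adjusted p = 1.48e-06), H2afv, for its close relative, by 1.59 (adjusted p = 3.2e-06), and H1f0, a linker histone of resting cells, by 1.40 (adjusted p = 0.00092). H2afy2, for a macroH2A, rose by 0.42 (adjusted p = 0.00275).

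H2afx, the H2A variant phosphorylated at DNA breaks, was 3537, 2613 and 2824 in proliferating progenitors, 5173, 2423 and 2650 in differentiating progenitors, with 733, 513 and 521 in neurons. It fell by 2.47 on the log2 scale at the neuronal step (adjusted p = 6.05e-05), and differentiating progenitor replicate 1 stood far above the other two of its group, as it did for Hist2h2be and Hist1h4i.

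The authors' deposited table gives its own folds and adjusted p-values for the same comparisons. In the authors' deposited table, at 0.05, 3 clustered histone genes were higher and 1 lower in differentiating than in proliferating progenitors, against 7.62% and 6.04% of all genes. Called higher in neurons than in differentiating progenitors in the authors' deposited table were 4, and lower 14, against 17.7% and 16.6% of all genes. Against proliferating progenitors the authors' deposited table has 4 higher and 17 lower, against 21.5% and 20.9%. For Hist3h2a the authors' deposited table gives folds of 1.88, 2.96 and 5.56, and for Hist1h4i 0.8, 0.11 and 0.09. It does not call the fall of Hist1h2bc from proliferating progenitors to neurons (adjusted p = 0.12 in the authors' deposited table).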

How the data were processed

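Poly-A RNA of 9 sorted cell pools (3 groups of 3) was sequenced, strand-specifically per the labels. The submitters' processing notes name the build mm9 and the tools BWA, DESeq 1.8.1, CASAVA 1.8.0 and bedtools 2.11. The step of each tool, the counting's strand setting and its handling of reads that match several gene copies were not given in the sources used here. Here the authors deposited a score per gene and library, a normalised read count rounded to a whole number, for genes of Ensembl version 61. The authors also deposited folds (the ratio of group means), adjusted p-values and gene lengths. The deposited values show estimated depths of 12653597 to 27595511 reads per library.

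Because the values are normalised, limma 3.58.1 (R 4.3.3, with an intensity trend) was used on log2(value + 1), with 3 group means, 6 residual degrees of freedom, genes of at least 10 in at least 3 libraries, and Benjamini-Hochberg adjustment at 0.05 over 15828 genes. A count model foreseen for raw counts was not run. The rest used Python 3.11.15, pandas 2.3.3 and numpy 2.4.6. The fit was tested on simulated data. Sums, counts and class shares are descriptions. The reported calls are from the fit without pairing unless the replicate block is named. Equal replicate numbers did pair the libraries: after removal of group means, libraries of equal number correlated in all 9 pairs (r of 0.507 to 0.767 across genes) and others at -0.64 to 0.428; the alternative fit with the replicate block had 4 residual degrees of freedom.

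Members, gene lists and naming rule were chosen with earlier results of these data known. Named with values were, per comparison, up to 8 called genes with the largest rise and 8 with the largest fall, the 3 most abundant genes per class, the Hist3 and Hist4 genes, and up to 4 genes per list with the smallest adjusted p, of which some are left out here, with Slbp, Npat and 5 variants in any case. Transcripts came from GENCODE M21 and promoters from RefSeq, both of GRCm38; 10 of the 57 identifiers were unmatched and 5 matched another name. No mm9 coordinates are given.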

Additional observations from a re-analysis of the deposited data

How the results depend on the processing

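No change that passed the limma test reversed under any alternative run. With replicate number as a block (the pairing), the count of clustered histone genes falling between the progenitor groups went from 1 to 3 and the count rising from 3 to 4, and rises to neurons from differentiating progenitors went from 5 to 6; it moved no other count of these genes. In replicates 2 and 3 alone, which tested 12 of the genes, 2 fell between the progenitor groups and 5 fell to neurons in either comparison, against 9 and 10. In that setting 17 genes (29.8%, against 29.5% of all genes) lay wholly below between the progenitor groups, and 16 (28.1%, against 20.9%) did with every library scaled to the same total.

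That scaling moved the median of all genes to -0.09, -0.23 and -0.31 in the order of the comparisons, and left 3 rises from differentiating progenitors to neurons, against 5. Without a filter on low values, which let all 57 genes be tested, 23 and 33 of them fell to neurons from differentiating and proliferating progenitors. With a minimum of 50, which left 7 genes tested, 3 and 4 fell, and 3 and 2 rose in the same comparisons. With only the 6 libraries of the groups compared, 4 and 6 fell. Pseudocounts of 0.5 and 5 gave the main counts. For the limma calls under alternative settings, including those without 1 library, the share of all genes called is not given here. No excess over all genes can therefore be read from these counts.

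Leaving out 1 library at a time gave 2 to 4 rises and 1 to 2 falls between the progenitor groups, 2 to 6 rises and 6 to 9 falls from differentiating progenitors to neurons, and 3 to 4 rises and 5 to 10 falls from proliferating progenitors. The falls to neurons were 5 without proliferating progenitor replicate 2 and 6 without its replicate 1, where 14 genes were tested. The rises from differentiating progenitors to neurons were 2 without neuron replicate 2 or 3, and 3 without neuron replicate 1 or differentiating progenitor replicate 1; the fall between the progenitor groups was joined by Hist2h2be without differentiating progenitor replicate 1. Counts of genes whose libraries did not overlap, added after seeing the data, ranged from 4 to 5 above and 10 to 16 below between the progenitor groups. They were 6 to 8 and 26 to 31 for neurons against differentiating progenitors, and 5 to 6 and 36 to 38 against proliferating progenitors. Leaving out a library cannot lower such a count, so these ranges do not measure its stability. In the same runs and order, 16.9% to 21.4%, 26.7% to 30.0% and 28.8% to 31.7% of all genes lay wholly above. Wholly below lay 18.1% to 22.8%, 25.8% to 29.1% and 30.3% to 33.3% of all genes. The 39 genes under the filter had means of 0.222 to 7, where 1 read was worth 0.8 to 1.385.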

Other observations

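Some clustered histone genes were highest in the same replicate number in more than 1 group. The share of all genes that did so is not given here. Hist1h2af was highest in replicate 2 of both progenitor groups, at 136 and 182, and lowest in replicate 3, at 20 and 19. In neurons it was 13, 4 and 1, highest in replicate 1. Hist2h2be was highest in replicate 1 of all 3 groups, at 654, 555 and 244, and so was Hist3h2a, at 449, 808 and 2496. The linker variant H1f0 was highest in replicate 1 as well, at 3260, 4376 and 1806. Red blood cell markers summed to 255488 in proliferating progenitor replicate 1 and to 2020 in differentiating progenitor replicate 1, each the highest of its group.

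The orders of level differed between groups. In proliferating progenitors the most abundant clustered histone genes per kilobase were Hist3h2ba at 548, Hist2h2be at 213, Hist3h2a at 210 and Hist1h4i at 205, and the last 3 lay close together. In neurons they were Hist3h2ba at 2411, Hist3h2a at 1167 and Hist1h2bc at 120, with Hist1h4i at 18.6.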
